A study of Mus musculus with 6 samples.

Results

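The GDNF family genes examined here were Ret, which encodes the signalling receptor, its 4 classical co-receptor genes Gfra1, Gfra2, Gfra3 and Gfra4, and the 3 ligand genes Gdnf, Nrtn and Artn. They were chosen by gene symbol, through the Ensembl identifier of each row, and are 8 of the 47937 rows of the table of read counts. RNA sequencing was performed on dorsal root ganglia (DRGs) of 3 control and 3 Tlx3cko mice, all C57BL/6 and about 2 months old, with ganglia of cervical, thoracic and lumbar levels. Control mice are wild type by their labels. The Tlx3cko genotype is labelled Tlx3f/f;SNS-cre, which carries floxed alleles of the transcription factor gene Tlx3 and a Cre driven by SNS, another name of the sodium channel Nav1.8. Since Nav1.8 is mainly expressed in nociceptors, DRG cells that never express it keep Tlx3, and whole ganglia hold both kinds of cell. The p-values compare the difference between the groups with the spread between libraries of the same group.

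Ligands of the GDNF family signal through a complex in which a GFRα protein, anchored at the cell surface, binds the ligand and the receptor tyrosine kinase Ret carries the signal into the cell. Each co-receptor has a preferred ligand: GDNF for GFRα1, neurturin (Nrtn) for GFRα2, artemin (Artn) for GFRα3 and persephin (Pspn) for GFRα4. In the DRG, Gfra2 is known from non-peptidergic nociceptors and TH+ low-threshold C fibres, Gfra3 from peptidergic nociceptors, and Ret from non-peptidergic nociceptors and from several classes of mechanoreceptor.

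The 4 co-receptor genes are paralogs, so their coding sequences were compared for stretches in which a read could be credited to either gene. The longest identical run between any pair was 28 bases, between Gfra1 and Gfra2, and the other 5 pairs shared runs of 10 to 12 bases, all far below the 150 bases of a read. Over whole exons, 0 of the 50-base windows of Ret, Gfra3, Gdnf, Nrtn and Artn occurred in another annotated gene. In Gfra2, 48 of 3583 windows did, 43 of them in a simple dinucleotide repeat.

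The libraries held 11458299 to 18775628 counts. Tlx3 itself was lower in Tlx3cko DRGs, at 1495 ± 141 against 2057 ± 173 normalized counts (SD, n = 3 each; log2 fold change -0.46, adjusted p = 0.0122 from edgeR), a call that was lost with sex as a covariate and when control replicate 2 or Tlx3cko replicate 2 or 3 was left out. Normalized counts are the raw counts after each library was brought to the mean effective size of the 6. The groups were not balanced for sex, since control replicates 1 and 2 carried Xist counts and the other 4 libraries carried counts of the Y-linked gene Ddx3y. Tlx3cko replicate 1 stood apart in genes of the nerve injury response, with 338 counts of Atf3 against 51 to 141 in the other 5 libraries, 128 of Sprr1a against 0 to 8, and 158 of Npy against 0 to 8. The fold changes of Ret, Gfra2 and Gfra3 and the shares of Gfra2 and Gfra3 are given below with and without it.

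Of the 8 genes, 7 reached a total of 10 counts in the 6 libraries and were tested with edgeR's quasi-likelihood method, with p-values adjusted over all 20006 genes tested. Ret and Gfra2 were lower and Gfra3 was higher in Tlx3cko DRGs past an adjusted p of 0.05, so 3 of the 7 were called, where 4.25% of all genes tested were called (2.56% lower and 1.69% higher). The same 3 genes had control and Tlx3cko values that did not overlap, which was so for 19.7% of all genes tested. Gfra1, Gfra4, Nrtn and Gdnf did not pass, and Artn had too few counts to test.

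**Figure D1:**
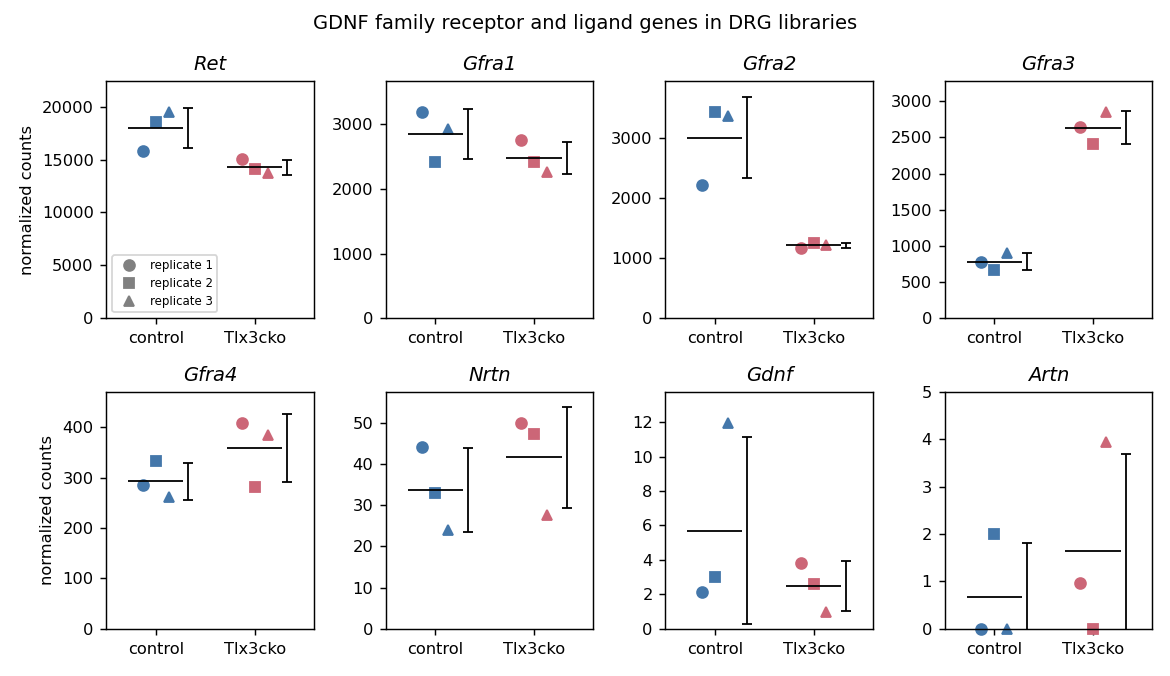
Normalized counts of the 8 genes in each of the 3 control (blue) and 3 Tlx3cko (red) libraries, 1 panel per gene with its own linear axis from 0; symbols are replicates, the horizontal line is the group mean and the bracket beside it the mean ± SD (n = 3), cut off at 0 for Artn. The Gfra3 points of Tlx3cko lie between 2403 and 2852, above all control points, and the Gfra2 points between 1169 and 1252, below all control points.

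Ret (chromosome 6, 118151745 to 118197718, minus strand of GRCm38) encodes the receptor tyrosine kinase shared by all these ligands. It had 15848, 18519.9 and 19502 normalized counts in control replicates 1, 2 and 3, and 15029, 14087 and 13685 in Tlx3cko replicates 1, 2 and 3. All 3 Tlx3cko values were below the lowest control value, by the smallest margin in Tlx3cko replicate 1. The mean fell from 17957 ± 1891 to 14267 ± 689.9 (SD, n = 3 each), that is, to 79.5% of control (log2 fold change -0.33, standard error 0.08, 95% interval -0.51 to -0.15, edgeR adjusted p = 0.0381). This was the weakest of the 3 calls. It was lost when control replicate 2 or 3 or Tlx3cko replicate 2 or 3 was left out, with edgeR adjusted p between 0.133 and 0.186, and kept without Tlx3cko replicate 1 (log2 fold change -0.37, adjusted p = 0.045). Even so, Ret remained one of the most abundant transcripts of the ganglia, with rank 66 among all genes tested by mean count in control and rank 89 in Tlx3cko.

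Gfra2 (chromosome 14, 70890120 to 70979838, plus strand), which encodes the neurturin co-receptor, was the member with the larger fall. Control replicates 1, 2 and 3 had 2216, 3424 and 3351 normalized counts of it, and Tlx3cko replicates 1, 2 and 3 had 1169, 1252 and 1221. The Tlx3cko libraries were close to each other and all below the control libraries, among which replicate 1 was the lowest. The mean fell from 2997 ± 677 to 1214 ± 41.7 (SD, n = 3 each), 40.5% of the control level. The log2 fold change was -1.30 (standard error 0.14, 95% interval -1.60 to -1.01, edgeR adjusted p = 9.05e-05), and without Tlx3cko replicate 1 it was -1.28 (adjusted p = 0.00112).

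Gfra3 (chromosome 18, 34689898 to 34720387, minus strand), which encodes the artemin co-receptor, moved the other way and further. Against 779, 660.2 and 901 normalized counts in control replicates 1, 2 and 3, Tlx3cko replicates 1, 2 and 3 had 2651, 2403 and 2852. The groups were far apart, with the lowest Tlx3cko library well above the highest control library. The mean rose from 780.0 ± 120.2 to 2635 ± 225 (SD, n = 3 each), to 338% of control (log2 fold change 1.75, standard error 0.11, 95% interval 1.51 to 2.00, edgeR adjusted p = 1.97e-06). By p-value Gfra3 had rank 10 of the 20006 genes tested, Gfra2 rank 72 and Ret rank 741. Without Tlx3cko replicate 1 the log2 fold change of Gfra3 was 1.75 (adjusted p = 3.11e-05).

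In whole ganglia, fewer cells of a type and less RNA per cell cannot be told apart, which holds for every member. Because the sexes were unbalanced, the 3 called genes were also fitted with sex as a covariate. Ret then had a log2 fold change of -0.45 (edgeR adjusted p = 0.0398), Gfra2 of -1.47 (adjusted p = 0.000652) and Gfra3 of 1.55 (adjusted p = 0.000136), so all 3 kept their direction and stayed past the threshold. The genotype difference in that fit rests on control replicate 3 against the 3 Tlx3cko libraries, since control replicates 1 and 2 alone lacked Y-linked counts. With only the 4 libraries that carried Y-linked counts, 1 control and 3 Tlx3cko, the values were -0.45, -1.47 and 1.55. This repeats the same comparison, in a fit that assumes that the lone control library varies like the Tlx3cko libraries.

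Gfra1 (chromosome 19, 58235604 to 58455909, minus strand), which encodes the GDNF co-receptor, had 3194, 2427 and 2926 normalized counts in the 3 controls, and 2762, 2413 and 2266 in the 3 Tlx3cko libraries. The groups overlapped. The means were 2849 ± 389 and 2481 ± 255 (SD, n = 3 each), and the log2 fold change was -0.20 (standard error 0.11, 95% interval -0.43 to 0.03, edgeR adjusted p = 0.44). The antisense gene Gm16277 covers 416 bases (7.60%) of the Gfra1 exons from the other strand. The library kit is not described as strand-specific and the use of strand in counting is not given, so reads from the shared bases cannot be assigned to either gene. Gm16277 was counted at 877 ± 90.8 in control and 801 ± 56.2 normalized counts in Tlx3cko (SD, n = 3 each), which did not pass the test (log2 fold change -0.13, edgeR adjusted p = 0.659).

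Gfra4 (chromosome 2, 131039632 to 131043088, minus strand) encodes the persephin co-receptor and was the least abundant of the co-receptors. The 3 controls had 286, 333 and 261 normalized counts of it and the 3 Tlx3cko libraries 409, 282 and 385. Tlx3cko replicate 2 lay within the control range and the other Tlx3cko libraries above it. The log2 fold change was 0.30 (standard error 0.16, 95% interval -0.04 to 0.63, edgeR adjusted p = 0.43). The microRNA gene Mir6973b lies on the same strand over 80 bases (3.70%) of the Gfra4 exons.

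**Figure D2:**
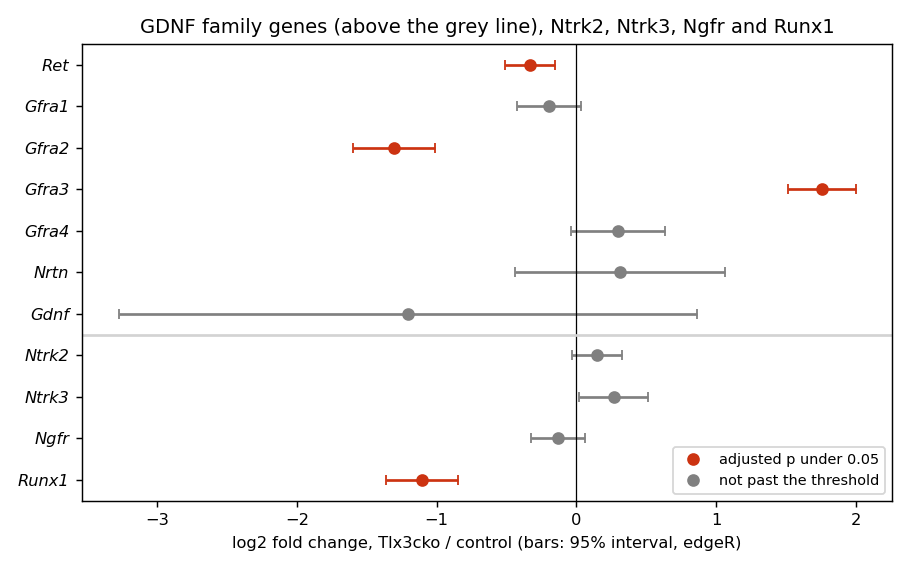
Log2 fold change of Tlx3cko against control for the 7 GDNF family genes tested and, under the grey line, Ntrk2, Ntrk3, Ngfr and Runx1, with 95% intervals from edgeR that are not adjusted for the number of genes; red marks an adjusted p under 0.05. The intervals of Gfra2 and Ret lie below 0 and that of Gfra3 above 0, and those of Gfra1, Gfra4, Nrtn and Gdnf include 0.

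The ligand genes were scarce in the ganglia that express their receptors. Nrtn (chromosome 17, 56751325 to 56757530, minus strand) was the most abundant of them, with raw counts of 41, 33 and 30 for the 3 controls and of 52, 36 and 28 for the 3 Tlx3cko libraries. After normalization it had 33.7 ± 10.2 and 41.6 ± 12.3 (SD, n = 3 each), and the ranges overlapped (log2 fold change 0.31, standard error 0.35, 95% interval -0.44 to 1.06, edgeR adjusted p = 0.779). Nrtn is the preferred ligand of GFRα2, and its wide interval includes no difference.

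Gdnf (chromosome 15, 7810846 to 7837575, plus strand) was read 2, 3 and 15 times in the 3 controls and 4, 2 and 1 times in the 3 Tlx3cko libraries. Control replicate 3 held most of the counts and the groups overlapped. The log2 fold change of -1.21 (standard error 0.96, 95% interval -3.28 to 0.87, edgeR adjusted p = 0.658) became -0.05 without control replicate 3. Artn (chromosome 4, 117926162 to 117929763, minus strand) was read 0, 2 and 0 times in the 3 controls and 1, 0 and 4 times in the 3 Tlx3cko libraries, 7 in all, so neither its presence nor a difference can be read at this depth. The gene whose product binds GFRα4, Pspn, had 10.7 ± 2.84 and 5.95 ± 4.03 normalized counts (SD, n = 3 each; log2 fold change -0.79, edgeR adjusted p = 0.693).

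To compare levels between genes of different length, CPM values (counts relative to library size) were divided by the kilobases of exon in each gene (CPM per kb). In control DRGs Ret was highest at 177 ± 18.7, followed by Gfra2 at 56.6 ± 12.8, Gfra1 at 34.7 ± 4.75 and Gfra3 at 26.1 ± 4.02 CPM per kb (SD, n = 3 each). Gfra1 and Gfra3 were neighbours whose ranges overlapped, whereas the ranges of Ret, Gfra2 and Gfra1 did not when all exons of a gene were counted as its length. Gfra4 followed at 9.05 ± 1.13 and Nrtn at 2.20 ± 0.665, and Gdnf and Artn, the lowest, overlapped.

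In Tlx3cko DRGs the order among the co-receptors changed. Ret stayed highest at 141 ± 6.81 CPM per kb, and Gfra3 came next at 88.1 ± 7.53, above Gfra1 at 30.3 ± 3.11 and Gfra2 at 22.9 ± 0.787 (SD, n = 3 each). No neighbours from Ret down to Gfra4, at 11.1 ± 2.08, had overlapping ranges. Gfra3 thus moved from the fourth place to the second, and Gfra2 from the second to the fourth.

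The co-receptor composition was expressed as the share of each gene in the summed CPM per kb of the 4 Gfra genes. Gfra2 made up 36.2%, 51.1% and 46.1% of the sum in the 3 controls and 14.1%, 16.6% and 14.6% in the 3 Tlx3cko libraries. Gfra3 made up 22.5%, 17.4% and 22.0% in control and 56.5%, 56.5% and 60.4% in Tlx3cko. The largest share belonged to Gfra2 in each control library and to Gfra3 in each Tlx3cko library. With the longest transcript as the length, Gfra3 was again the largest in each Tlx3cko library, whereas in control replicate 1 Gfra1 (36.7%) exceeded Gfra2 (34.0%).

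On average the share of Gfra2 fell from 44.4% ± 7.59 to 15.1% ± 1.36 and that of Gfra3 rose from 20.7% ± 2.79 to 57.8% ± 2.25 (SD, n = 3 each). The share of Gfra1 was 27.7% ± 5.35 in control and 19.9% ± 2.10 in Tlx3cko, also without overlap, while its own count did not pass the test, since a share also moves when the other genes do. Gfra4 kept a similar share, 7.21% ± 1.18 and 7.23% ± 0.989, with overlapping groups. Without Tlx3cko replicate 1 the share of Gfra2 differed by -28.8 percentage points (Tlx3cko minus control) and that of Gfra3 by 37.8 points. For Gfra1, Gfra2 and Gfra3 the exact two-sided permutation test gave p = 0.1, the smallest that 3 against 3 libraries allow, so this design cannot reach 0.05 for a single value.

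**Figure D3:**
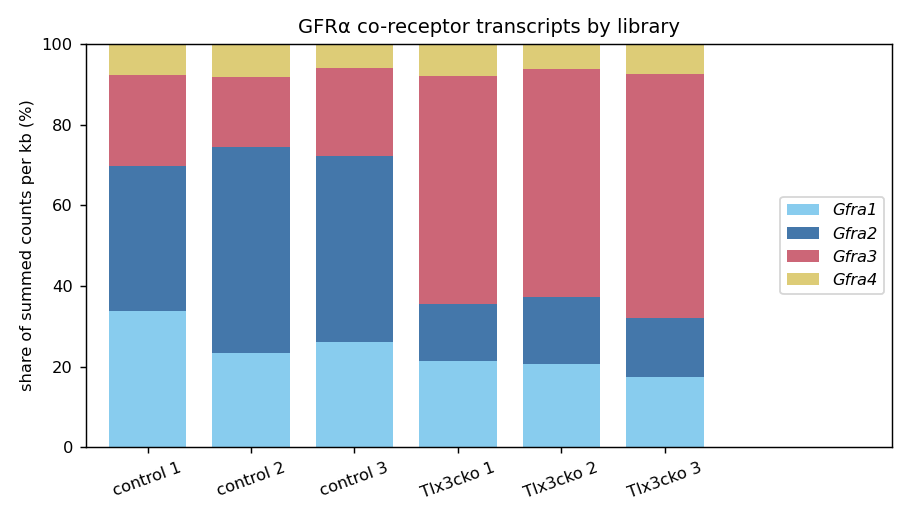
Share in percent of Gfra1, Gfra2, Gfra3 and Gfra4 in their summed CPM per kb, as 1 stacked bar per library. Gfra2 is the largest segment of the 3 control bars (36.2% to 51.1%) and Gfra3 of the 3 Tlx3cko bars (56.5% to 60.4%).

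Ratios between members do not depend on the scaling of a library. The log2 ratio of Gfra3 to Gfra2 counts was -1.51, -2.37 and -1.90 in the 3 controls and 1.18, 0.94 and 1.22 in the 3 Tlx3cko libraries. Gfra2 therefore outnumbered Gfra3 in each control library and the reverse held in each Tlx3cko library, a difference of 3.04 on the log2 scale. Gfra2 fell more than Ret did: the log2 ratio of Gfra2 to Ret went from -2.60 ± 0.209 to -3.55 ± 0.113 (SD, n = 3 each), without overlap.

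The summed CPM per kb of the 4 co-receptors relative to Ret was 0.739, 0.692 and 0.712 in control and 1.06, 1.02 and 1.17 in Tlx3cko libraries. The ratio was higher in each Tlx3cko library than in any control library. Whether it lies above 1 depends on the gene length used, since with the longest transcript of each gene it was 0.646, 0.597 and 0.613 in control and 0.903, 0.868 and 0.990 in Tlx3cko libraries. The means were 0.714 ± 0.0236 and 1.08 ± 0.0766 (SD, n = 3 each; exact permutation p = 0.1, the smallest possible).

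Of the neurotrophin receptor genes, Ntrk2, Ntrk3 and Ngfr did not pass: the log2 fold changes were 0.15 for Ntrk2, 0.27 for Ntrk3 and -0.13 for Ngfr, with edgeR adjusted p of 0.484, 0.293 and 0.575.

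**Figure D4:**
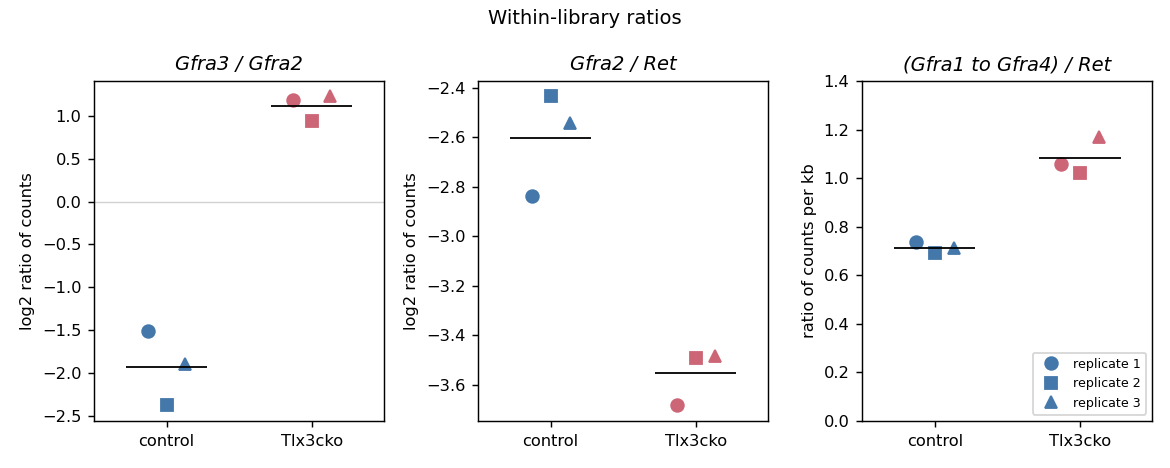
Log2 ratio of Gfra3 to Gfra2 counts, log2 ratio of Gfra2 to Ret counts, and linear ratio of the summed CPM per kb of Gfra1 to Gfra4 to that of Ret, in each library; symbols are replicates and the line is the group mean (n = 3). The control and Tlx3cko points do not overlap in any of the 3 panels, and the Gfra3 to Gfra2 points lie between -2.37 and -1.51 in control and between 0.94 and 1.22 in Tlx3cko.

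The other genes of the pathway were taken from lists of ligands and receptors, adaptors, downstream kinases, negative regulators and ETS transcription factors. Of these 74 genes, 73 were tested and 5 passed (6.85%, against 4.25% of all genes tested), 3 lower and 2 higher in Tlx3cko DRGs, and their median log2 fold change was -0.01 against -0.0036 for all genes. Most of the 73 genes did not pass the test in either direction, which was also so for most of all genes tested.

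Among the 28 adaptor genes, Gab1 and Shc1 fell and 0 rose. Gab1, a docking protein that recruits PI3 kinase, went from 852 ± 96.7 to 559.9 ± 36.9 normalized counts (SD, n = 3 each; log2 fold change -0.60, standard error 0.11, edgeR adjusted p = 0.0054). Shc1, an adaptor that binds phosphorylated Ret, went from 3643 ± 611 to 2587 ± 139 (log2 fold change -0.49, standard error 0.11, adjusted p = 0.0196).

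Among the 21 downstream effector genes, the transcription factor gene Stat3 fell from 5676 ± 302 to 4632 ± 232 (log2 fold change -0.29, edgeR adjusted p = 0.0414) and Pik3r1, which encodes a regulatory subunit of PI3 kinase, rose from 2954 ± 420.1 to 3856 ± 188 (log2 fold change 0.38, adjusted p = 0.0462). Of the 15 negative regulators, Spred1, an inhibitor of the Ras pathway, rose from 793 ± 48.5 to 1017 ± 33.3 (log2 fold change 0.36, adjusted p = 0.0381). These 3 calls were close to the threshold, and those of Pik3r1 and Spred1 were lost without Tlx3cko replicate 1. Shc1 and Stat3 were lost without control replicate 2 or 3 or Tlx3cko replicate 2 or 3, Pik3r1 also without control replicate 2 or Tlx3cko replicate 2 or 3, and Spred1 whichever library was left out except control replicate 1. All 3 were also lost with sex as a covariate, as were those of Gab1 and Shc1, since 0 of the 73 genes passed in that fit.

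Of the 3 ETS genes, listed as factors induced by neurotrophic signalling, none passed. Etv5 had the smallest p, with 2165 ± 48.4 and 2632 ± 148 normalized counts (SD, n = 3 each; log2 fold change 0.28, edgeR adjusted p = 0.0558). Among the other ligands and receptors, Gas1, which encodes a protein related to the GFRα co-receptors, had 129 ± 15.3 and 68.6 ± 24.0 normalized counts (log2 fold change -0.90, adjusted p = 0.0602). Gfral, the gene of the GDF15 co-receptor, had at most 1 count in any library and was not tested.

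**Figure D5:**
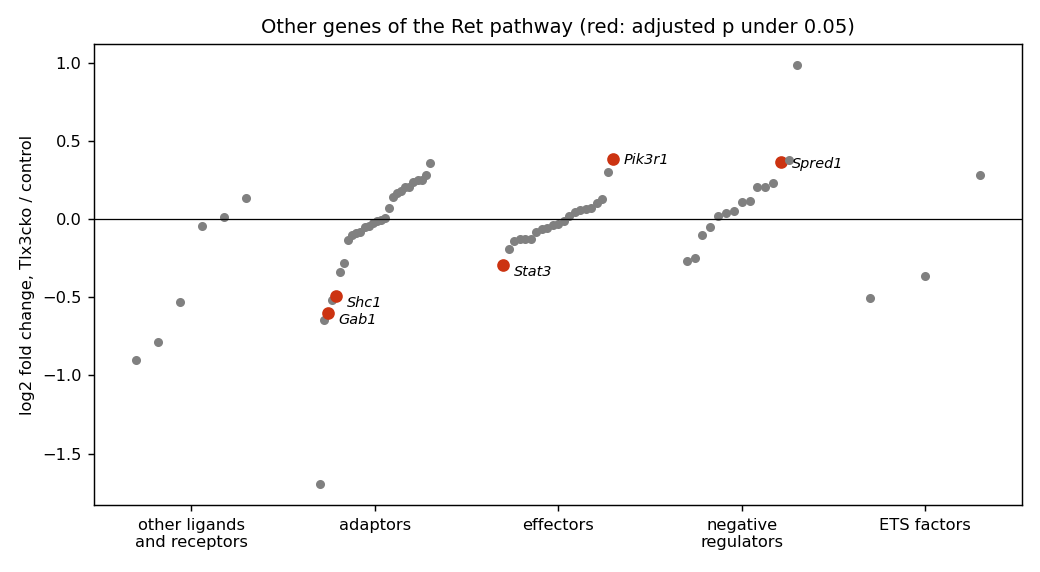
Log2 fold change of Tlx3cko against control for the 73 pathway genes tested, 1 point per gene, grouped by list along the horizontal axis and sorted within each list; red points passed an adjusted p of 0.05. The 5 red points are Gab1, Shc1, Stat3, Pik3r1 and Spred1, and the lowest point (Grb7, -1.70) and the highest (Cblc, 0.98), which had at most 5 and 6 counts in any library, are grey.

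Transcription factors known to act on Ret or Gfra genes in sensory neurons formed a list of their own, of which 8 genes were tested and 1 passed. Runx1, which is known to be needed for Ret expression in non-peptidergic nociceptors, had 1714, 1284 and 1355 normalized counts in the 3 controls, and 610.2, 731 and 683 in the 3 Tlx3cko libraries. All Tlx3cko values were below all control values. The mean fell from 1451 ± 231 to 675 ± 60.8 (SD, n = 3 each; log2 fold change -1.11, standard error 0.12, edgeR adjusted p = 1.10e-04). Mafa, a transcription factor gene of early Ret-expressing mechanoreceptors, had 192 ± 69.1 and 319 ± 1.47 (log2 fold change 0.74, adjusted p = 0.0607).

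Genes closest in pattern to each member over the 6 libraries were sought among the 13373 genes whose mean reached 50 normalized counts, by the root mean square (RMS) difference of centred log2 values. Those closest to Gfra2 were Kcnd3, a potassium channel gene (RMS 0.109, log2 fold change -1.16), Grik1, a kainate receptor gene (RMS 0.109, log2 fold change -1.24) and Ptgdr, a prostaglandin receptor gene (RMS 0.119, log2 fold change -1.46). Those closest to Gfra3 were Racgap1 (RMS 0.088, log2 fold change 1.73), Vangl1 (RMS 0.144, log2 fold change 1.49) and the potassium channel gene Kcng4 (RMS 0.164, log2 fold change 1.45). These genes were picked for their likeness to the member, group difference included, so their fold changes are a description.

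Ret was closest to Zfp866, Tpm1 and Brap (RMS 0.025, 0.032 and 0.034), with log2 fold changes of -0.30 for each. Gfra1 was closest to Phldb2, Ficd and Rab8a (RMS 0.022, 0.038 and 0.040), and Gfra4 to 3110082I17Rik, mt-Atp8 and Gm11613 (RMS 0.067, 0.072 and 0.078).

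Marker genes of the cell types that ganglia hold moved alongside Gfra2 and Gfra3, and their part in the results was not tested. All 7 markers of non-peptidergic nociceptors fell, with a median log2 fold change of -0.99 and summed levels of 22229 to 26172 normalized counts in control and 11631 to 13189 in Tlx3cko libraries. Scn11a and Plxnc1 were the most abundant of them (log2 fold changes -0.79 and -0.51). Of the 5 markers of TH+ C-LTMRs, the low-threshold mechanoreceptors with C fibres, 4 fell, with summed levels of 8512 to 10270.1 and 6233 to 7268 (Th -2.91, and Piezo2, which did not pass, -0.20, on the log2 scale). Of the 6 markers of peptidergic nociceptors, 3 rose and 0 fell past the threshold, with summed levels of 24214 to 25565 and 39657 to 43434 (Calca 0.47 on the log2 scale). The other 3 did not pass, with log2 fold changes of 0.55 for Tac1, -0.12 for Calcb and -0.15 for Adcyap1, so the list did not rise as a whole.

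Markers listed for sensory neurons in general showed 1 rise and 0 falls among 8 genes. The gene that rose was Scn10a, which encodes Nav1.8 and is mainly expressed in nociceptors, so it does not stand for all sensory neurons. Tubb3 had a log2 fold change of 0.17 and Uchl1 of -0.09. The summed levels of the 8 genes were 172631 to 184964 normalized counts in control and 183093 to 196076 in Tlx3cko libraries. Of 8 markers of myelinated neurons, 3 rose, among them Nefm (0.40) and Nefh (0.36). The 5 satellite glia genes (Apoe 0.14, Glul 0.26) had log2 fold changes from -0.20 to 0.26, with a median of 0.14. Those of the 6 Schwann cell genes (Pmp22 -0.31) ran from -0.31 to 0.32, with a median of 0.16. None of the genes in these lists passed. Neither did any of the 5 immune cell genes (Csf1r -0.08, Ptprc -0.54) or the 5 red blood cell genes (Hba-a1 -0.50, Hbb-bs -0.39).

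Of 6 fibroblast genes, 4 fell, with summed levels of 4784 to 5641 and 3767 to 4070.4 normalized counts (Dcn -0.39; Col1a2, which did not pass, -0.22). Of 6 skeletal muscle genes, 1 rose, Myh4 (2.87; Acta1, which did not pass, 1.04), with summed levels of 104 to 1839 and 1533 to 2845 that overlapped. Of 6 spinal cord genes Aqp4 was the only one with enough counts to be tested (0.48, not past the threshold), and Slc6a5, Slc32a1, Gad2, Olig2 and Chat had at most 4 counts in any library. Of 8 injury genes, 2 rose, Gap43 (0.46) and Csf1, with summed levels of 4438 to 5192 and 5578 to 7736, and Gadd45a did not pass (-0.11).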

How the data were processed

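The authors deposited 1 table of raw read counts per gene for the 6 libraries, without normalization. Total RNA was extracted with a column kit and sequenced as read pairs of 150 bases. The submitters' processing notes name STAR 2.5.2a and the mm10 build, and the counting program, annotation release and use of strand are not given in the sources used here. Gene names, positions and exon lengths came from GENCODE M21 (GRCm38), and 208 rows outside the annotation stayed in the library sizes.

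Genes with at least 10 counts in total were scaled by TMM and tested with edgeR 4.0.16 in R 4.3.3 (quasi-likelihood test, Benjamini-Hochberg adjustment over all genes, threshold 0.05). Standard errors were taken as the absolute log2 fold change over the root of F. Ratios and shares were compared by exact two-sided permutation of libraries. Replicate libraries differed by more than sampling noise and were counted separately. Groups came from the genotype labels, and the scripts were tested on simulated data. Intervals rest on the spread between libraries of the same group.

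The members, the gene lists and the alternatives were chosen with earlier results of these data known. Genes named are the members, the pathway and Ret regulator genes past the threshold (at most 6 a list, or the 1 with the smallest p), the 3 genes closest in pattern to each member averaging 50 normalized counts or more (pseudocount 0.5), the 2 most abundant genes of each cell type list, Tlx3, Xist, Ddx3y and the neurotrophin receptors, of which some items are not reported here. Others (Scn10a, Csf1, Mafa, Gm16277, Pspn, Gfral, Grb7, Cblc, Atf3, Sprr1a, Npy and spinal cord genes) were named after their values were seen. So were Tac1, Calcb and Adcyap1.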

Additional observations from a re-analysis of the deposited data

How the results depend on the processing

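Alternatives were DESeq2, limma-voom, other scalings and filters, sex, the replicate number and each library left out. The sex covariate and the Y-linked libraries alone are not separate checks, as both compare control replicate 3 with the Tlx3cko libraries. Gfra2 and Gfra3 passed in all 16, with log2 fold changes from -1.48 to -1.20 and from 1.55 to 1.87. Ret kept its direction in all 16 and passed in 11. Gfra1, Gfra4 and Nrtn passed in none of 16, nor Gdnf in the 14 that gave a value (DESeq2 left its adjusted p undefined and a stricter count filter removed it). Leaving out each library in turn gave Ret log2 fold changes of -0.42 to -0.27, 488 to 938 called genes (851 in all 6), 1 to 5 called pathway genes (1 without Tlx3cko replicate 2 or 3, 2 without control replicate 2 or 3), and a change in the Gfra4 share of -0.649 to 0.570 percentage points (0.0194 with all 6), which was -0.649 without control replicate 3, -0.386 when Tlx3cko replicate 1 and -0.126 when Tlx3cko replicate 3 was left out. Without the filter on low counts 1529 genes and 9 pathway genes were called. With sex as a covariate these were 487 and 0, and with only the Y-linked libraries 553 and 1, with a Gfra4 share change of 1.36 points. The cause of these shifts was not tested. Same-numbered libraries did not deviate together (correlations -0.139, -0.00357 and -0.121, against -0.0136 to 0.138 for libraries of unlike number). No pairing by number was thus seen, though so few libraries cannot exclude one. With the replicate block, Ret had a log2 fold change of -0.33 (edgeR adjusted p = 0.0671), and 770 genes were called. Depth limits Gdnf and Artn, which had too few counts to compare.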
